A study of Mus musculus with 4 samples.

Results

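The transcription factors that hold mouse ES cells in the naive state were read in cells sorted for kidney specific protein (KSP) after renal differentiation. The group comprised 10 genes, Esrrb, Tfcp2l1, Klf2, Klf4, Klf5, Zfp42, Tbx3, Nr0b1, Nr5a2 and Prdm14, chosen by name, of 18193 genes with a probe set of their own. All 24 probe sets assigned to them, of 45037 on the array besides controls, were taken. All cells descended from 1 ES cell line of 129/Ola background, CAG-GFP EB3, which carries GFP under the ubiquitous CAG promoter, and they had been differentiated through embryoid bodies for 18 days with Activin at 10 ng/mL. On that day 2 samples of KSP-positive cells and 2 samples of KSP-negative cells were sorted in 2 independent experiments with an antibody against KSP, a cadherin of the kidney tubule encoded by Cdh16. Each fraction is therefore a mixture of cells from 1 ES cell line, and the KSP-negative cells are not undifferentiated ES cells but the rest of the same differentiated culture.

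Naive pluripotency is the state of the early epiblast that mouse ES cells keep in culture under leukemia inhibitory factor (LIF). Its factors activate one another and Pou5f1, Sox2 and Nanog, and most of them are shut off soon after ES cells start to differentiate. Several have a second life in adult or embryonic organs. Tfcp2l1 acts in the collecting duct of the kidney, Nr0b1 in the adrenal gland and gonad, Nr5a2 in the liver and ovary, Tbx3 in mesoderm of the limb and heart, Klf2 in endothelium, and Klf4 and Klf5 in epithelia and smooth muscle. The comparison asked which of them differed between KSP-positive cells and the rest of the culture.

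Signals are MAS5 intensities, 1 value for each probe set and array, scaled so that the 75th percentile of each array was 281. Signals under 12.3 were raised to that floor before log2 values were taken, and probe sets whose log2 signal averaged 5.14 or less went untested. A log2 difference is the mean of the KSP-positive arrays minus the mean of the KSP-negative arrays. Of the 10 factors, 6 fell in KSP-positive cells (Nr0b1, Zfp42, Tfcp2l1, Prdm14, Esrrb and Nr5a2; adjusted p under 0.05 from limma), where 1.65% of the 12849 genes tested fell. The count was 3 with KSP-negative replicate 2 left out, and 0 when dim probe sets were kept or when the methods' t-test was adjusted over all genes. None rose, where 1.84% of all genes rose, and 4 did not pass the test (Tbx3, Klf5, Klf2 and Klf4; 7 of the 10 had an unadjusted p under 0.05). The median log2 difference of the 10 factors was -2.44, beside -0.03 over all genes. More than 2-fold lower were 7 of the factors, beside 7.66% of all genes, and more than 2-fold higher was none, beside 7.92%. Both KSP-positive arrays lay below both KSP-negative arrays for 8 factors, beside 24.6% of all genes, and above them for Klf4, beside 24.4%. Nr0b1 and Prdm14 passed the filter on dim probe sets only through the KSP-negative arrays, so they had to be lower in KSP-positive cells to be tested at all. Of the 8 factors whose mean exceeded the filter in both fractions, 4 fell.

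**Figure D1:**
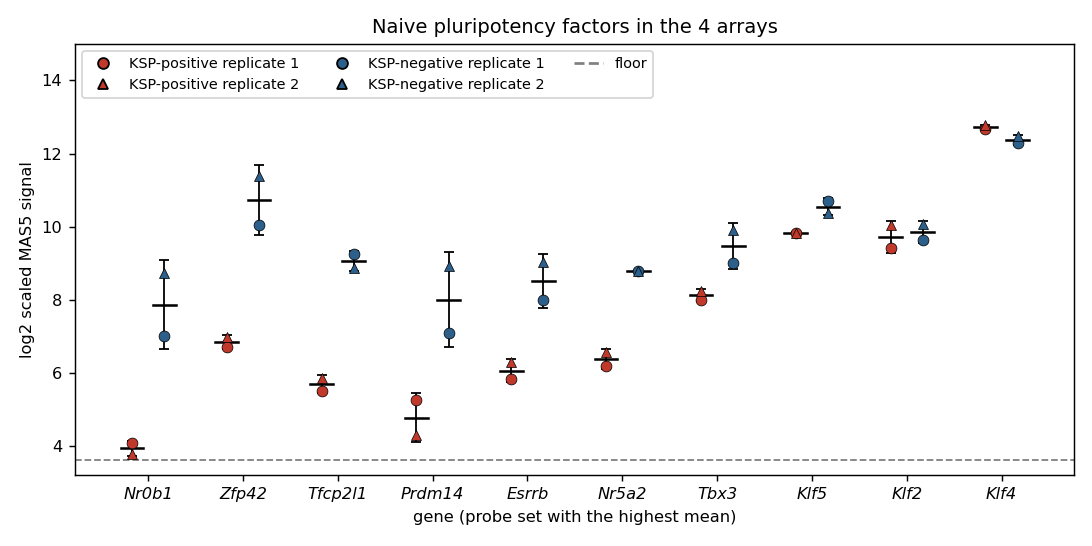
Log2 scaled signal (vertical axis) of the brightest probe set of each of the 10 naive factors (horizontal axis, ordered by log2 difference) in the KSP-positive arrays (red, left) and the KSP-negative arrays (blue, right), with circles for replicate 1, triangles for replicate 2, short bars at the mean of each fraction with its SD (n = 2 arrays) and the floor dashed. The fractions lie apart for the genes on the left, from Nr0b1 with a log2 difference of -3.94 to Nr5a2 with -2.42, and overlap for Klf2.

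Cdh16, the gene of KSP, had signals of 50.5 and 32.6 in KSP-positive replicates 1 and 2, against 39.3 and 26.3 in KSP-negative replicates 1 and 2. The fractions thus overlapped for the RNA of the sort marker (adjusted p = 0.816 from limma). The sort itself was on KSP protein at the cell surface. With a mean log2 signal of 5.17, just above the filter of 5.14, this dim probe set cannot show how well the sort parted the cells. The labels call the cells differentiated ES cells, and 12 of 13 tested macrophage genes rose in KSP-positive cells, beside 1.84% of all genes. Of these 12, C1qa, C1qc and Fcgr1 passed the filter only through the KSP-positive arrays, so they had to be higher there to be tested. Spi1 did not pass the test (log2 difference 0.72, adjusted p = 0.454 from limma), and Itgam lay under the filter. The summed signal of the macrophage list was 24709 and 11900 in KSP-positive replicates 1 and 2, against 2042 and 1748 in KSP-negative replicates 1 and 2, and its part in the values of the factors was not tested. The ratio of 3′ to 5′ actin signal, which rises when RNA is shortened, was 1.80 to 2.92 in KSP-positive arrays and 1.79 to 3.55 in KSP-negative arrays. In a sorted mixture, fewer cells of a type and less RNA per cell cannot be told apart. The design has 2 arrays a fraction, an exact permutation of which cannot give a p under 0.333, so tests are those of limma across all genes, and the number of arrays limits the precision.

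Promoters of Zfp42, Nr0b1 and Tfcp2l1, which fell, and of Klf4, which did not pass the test, are shown to set their sequences beside these values. They run from 250 bases before to 50 bases after the transcription start, 5′ to 3′ on the gene's strand, from RefSeq on GRCm38.p6. RefSeq promoters were matched for 7 of the 10 factors, 9 promoters in all, and none was matched for Klf5, Tbx3 or Prdm14. Capitals mark matches, on either strand, to any of 7 motifs. Those with a longer core were ATGCAAAT (the octamer of Oct4), TCAAGGTCA (bound by Esrrb and Nr5a2), TTCCNGGAA (a Stat element) and CCACACCC (a Klf element). The core of the Sox factors, which pair with Oct4 on DNA, was searched as CATTGT. The GC box, to which Sp1 and several Krüppel-like factors bind, was searched as GGGCGG. The TATA box, where the basal machinery is placed, was searched as TATAAA.
Zfp42, chr8:43306960-43307259, minus strand: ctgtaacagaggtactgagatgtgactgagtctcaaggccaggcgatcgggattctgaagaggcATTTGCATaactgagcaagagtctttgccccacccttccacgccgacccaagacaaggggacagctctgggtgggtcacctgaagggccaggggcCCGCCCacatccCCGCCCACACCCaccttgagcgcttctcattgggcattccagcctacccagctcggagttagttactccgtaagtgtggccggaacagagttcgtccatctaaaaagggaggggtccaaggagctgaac
Nr0b1, chrX:86191525-86191824, plus strand: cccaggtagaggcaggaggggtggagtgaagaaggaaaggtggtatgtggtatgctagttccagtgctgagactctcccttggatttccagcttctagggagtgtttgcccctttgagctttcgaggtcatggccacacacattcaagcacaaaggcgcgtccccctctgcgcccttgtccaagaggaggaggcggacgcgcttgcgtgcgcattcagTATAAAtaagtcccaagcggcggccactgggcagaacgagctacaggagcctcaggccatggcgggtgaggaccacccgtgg
Tfcp2l1, chr1:118627695-118627994, plus strand: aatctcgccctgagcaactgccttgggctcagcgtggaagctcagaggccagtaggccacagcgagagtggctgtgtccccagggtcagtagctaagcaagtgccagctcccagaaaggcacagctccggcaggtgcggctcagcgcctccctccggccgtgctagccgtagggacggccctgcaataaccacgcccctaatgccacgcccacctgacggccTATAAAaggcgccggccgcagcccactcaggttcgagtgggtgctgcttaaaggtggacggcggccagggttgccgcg
Klf4, chr4:55532426-55532725, minus strand: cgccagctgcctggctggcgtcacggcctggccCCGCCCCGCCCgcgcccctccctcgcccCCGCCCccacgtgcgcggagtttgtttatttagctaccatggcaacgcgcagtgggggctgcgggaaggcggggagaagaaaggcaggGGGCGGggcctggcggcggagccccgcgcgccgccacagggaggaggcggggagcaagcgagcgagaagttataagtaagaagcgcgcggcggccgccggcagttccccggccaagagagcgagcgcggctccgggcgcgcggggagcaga
The promoter of Zfp42 held the octamer, beginning 186 bases before the start, as 1.74% of 32851 promoters did, and a Klf element, as 3.56% did. Its Klf element, beginning 75 bases before the start, overlaps 1 of its pair of GC boxes. Those of Nr0b1 and Tfcp2l1 each held a TATA box, which began 32 bases before the start in Nr0b1 and 28 bases before it in Tfcp2l1, a motif of 13.6% of all promoters. The promoter of Klf4 held 4 GC boxes and none of the other motifs, and a GC box was in 35.7% of all promoters. No promoter of the 7 factors held the element of Esrrb and Nr5a2 (0.423% of all promoters) or the Stat element (1.15%) in this window. A Sox core was in 1 of the 9 promoters, 1 of Esrrb, and in 12.6% of all. A TATA box was in 3 of the 9 and a GC box in 3. A match is a run of letters and says nothing of binding in these cells.

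Zfp42 encodes Rex1, a zinc finger protein related to Yy1 and a classical marker of undifferentiated ES cells. Its signal was 105 and 125 in KSP-positive replicates 1 and 2, against 1058 and 2697 in KSP-negative replicates 1 and 2. Both KSP-positive arrays were about alike, while the KSP-negative arrays differed from each other more than the KSP-positive arrays did. Zfp42 was 14.7-fold lower in KSP-positive cells (log2 difference -3.88, standard error 0.45, adjusted p = 0.00236 from limma).

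Nr0b1 encodes Dax1, a nuclear receptor without the usual DNA-binding domain that binds Oct4 and Nr5a2 in ES cells and is needed in the adrenal gland and gonad. Its signal was 16.8 and 13.7 in KSP-positive replicates 1 and 2, against 128 and 423 in KSP-negative replicates 1 and 2. Both KSP-positive values stood just above the floor of 12.3, so they mark a level near the lower end of the scale. The fall was 15.3-fold (log2 difference -3.94, standard error 0.60, adjusted p = 0.00821 from limma). The log2 difference was -2.65 with the floor at the 40th percentile.

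Prdm14 encodes a PR-domain protein that represses FGF signalling and DNA methyltransferases in ES cells and specifies primordial germ cells. Its signal was 37.7 and 19.5 in KSP-positive replicates 1 and 2, against 135 and 485 in KSP-negative replicates 1 and 2. The fractions did not overlap, but both had the widest replicate gaps among the 10 factors. Prdm14 was 9.44-fold lower (log2 difference -3.24, standard error 0.62, adjusted p = 0.0197 from limma). With KSP-negative replicate 2 left out its log2 difference was -2.32 (adjusted p = 0.129 from limma), and Nr0b1 then fell under the filter and was not tested.

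The other factors with an adjusted p under 0.05 are Tfcp2l1, Esrrb and Nr5a2. Tfcp2l1 encodes a member of the CP2 and grainyhead family that is a target of LIF and Stat3 in ES cells and shapes the cell types of the renal collecting duct. Its main probe set gave 45.5 and 58.2 in KSP-positive replicates 1 and 2, against 610 and 464 in KSP-negative replicates 1 and 2. The replicates of each fraction were close together. Tfcp2l1 was 10.3-fold lower (log2 difference -3.37, standard error 0.39, adjusted p = 0.00236 from limma). Its other probe sets, 1460715_x_at and 1460714_at, were under the floor in both KSP-positive arrays and at or near it in the KSP-negative arrays, and were not tested.

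Esrrb encodes an orphan nuclear receptor of naive ES cells and of trophoblast stem cells. The brightest of its 3 probe sets had signals of 56.7 and 77.6 in KSP-positive replicates 1 and 2, against 254 and 522 in KSP-negative replicates 1 and 2. The fractions lay apart, and each second replicate was the higher. The log2 difference was -2.46 (5.49-fold lower, standard error 0.45, adjusted p = 0.0163 from limma), and -1.94 without KSP-negative replicate 2 (adjusted p = 0.102). This probe set, 1441921_x_at, is of a class in which some probes can match other sequences. The probe set 1436926_at is not of that class. It had 36.3 and a value under the floor in KSP-positive replicates 1 and 2, against 155 and 267 in KSP-negative replicates 1 and 2. This probe set passed the filter only through the KSP-negative arrays, so it had to be lower in KSP-positive cells to be tested. The dimmest, 1422986_at, lay under the filter with 14.4 and 22.9 in KSP-positive cells and 50.1 and 38.8 in KSP-negative cells.

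Nr5a2 encodes Lrh1, a nuclear receptor that can activate Pou5f1 in ES cells and controls bile acid and steroid genes in liver and ovary. Its brightest probe set had signals of 72.4 and 94.4 in KSP-positive replicates 1 and 2, against 441.4 and 441.3 in KSP-negative replicates 1 and 2. The KSP-negative arrays were thus nearly identical. The log2 difference was -2.42 (5.34-fold lower, standard error 0.38, adjusted p = 0.00848 from limma). A second probe set, 1456521_at, showed 37.0 and 57.6 in KSP-positive cells, against 203 and 217 in KSP-negative cells. Another, 1449706_s_at, passed the filter only through the KSP-negative arrays and had a log2 difference of -1.60. The last, 1449707_at, was at the floor in both KSP-negative arrays and carried no measurable difference.

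Tbx3, a T-box repressor of ES cells and of limb and heart mesoderm, did not pass the test. Its brightest probe set gave 256 and 303 in KSP-positive replicates 1 and 2, against 517 and 957 in KSP-negative replicates 1 and 2. The fractions did not overlap, and the log2 difference was -1.34 (2.53-fold, 95% confidence interval -2.21 to -0.46, adjusted p = 0.0993 from limma). The difference was -1.78 with KSP-negative replicate 1 left out and -0.89 with KSP-negative replicate 2 left out. A second probe set, 1437479_x_at, had a log2 difference of -1.26 with a SD of 1.17 between the KSP-positive arrays. The other 3 probe sets of Tbx3 lay under the filter.

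The 3 Krüppel-like factors did not pass the test in either direction. Klf5, which maintains ES cells and also acts in intestinal crypts and smooth muscle, had 902 and 912 in KSP-positive replicates 1 and 2, against 1670 and 1325 in KSP-negative replicates 1 and 2. Both KSP-positive values were the lower, but the log2 difference of -0.71 (95% confidence interval -1.45 to 0.02, adjusted p = 0.296 from limma) was small beside those of Zfp42 or Tfcp2l1. On its next probe set, 1451739_at, the fractions overlapped (log2 difference -0.48), and 1430255_at lay under the filter.

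Klf2, a factor of naive ES cells and of endothelium, has a single probe set, with signals of 675 and 1047 in KSP-positive replicates 1 and 2, against 797 and 1067 in KSP-negative replicates 1 and 2. The fractions overlapped, and the second replicate was the higher in both. The log2 difference was -0.13 (95% confidence interval -0.95 to 0.68, adjusted p = 0.898 from limma), an interval that leaves out a 2-fold change. Its sign turned to 0.18 without KSP-positive replicate 1 and to 0.08 without KSP-negative replicate 2.

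Klf4, a reprogramming factor that is also expressed in skin, gut and monocytes, was the only factor whose KSP-positive arrays both lay above both KSP-negative arrays. Its brightest probe set had signals of 6574 and 6979 in KSP-positive replicates 1 and 2, against 4967 and 5709 in KSP-negative replicates 1 and 2. The log2 difference was 0.35 (95% confidence interval -0.33 to 1.02, adjusted p = 0.611 from limma). The other probe set, 1417395_at, showed 1542 and 1831 in KSP-positive cells, against 780 and 783 in KSP-negative cells. It was 2.15-fold higher in KSP-positive cells and without overlap, but did not pass the test over all probe sets (log2 difference 1.10, 95% confidence interval 0.37 to 1.84, unadjusted p = 0.00822, adjusted p = 0.194 from limma). The probe sets of Klf4 thus had the same sign and differed in size, and the sign of its brightest probe set was positive under each alternative run.

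When every probe set was tested on its own, 16 of the 24 passed the filter, 4 of them only through the KSP-negative arrays. Of the 16, 4 fell (those of Nr0b1, Zfp42 and Tfcp2l1 and the brightest of Nr5a2), where 0.296% of 27022 probe sets fell, and none rose, where 0.307% rose. The fractions did not overlap on 12 probe sets that were lower in KSP-positive cells, beside 23.2% of all probe sets, and on the pair of Klf4 probe sets that were higher, beside 20.9%. Those of Esrrb (adjusted p = 0.0669 and 0.0663 from limma) and Prdm14 (adjusted p = 0.0769) did not pass at this number of tests. Probe sets of 1 gene that passed the filter had the same sign for each of Esrrb, Nr5a2, Tbx3, Klf5 and Klf4. For Esrrb and Nr5a2 this was partly fixed in advance, since 1436926_at and 1449706_s_at passed only through the KSP-negative arrays. Of the 8 under the filter, 2 were lower in KSP-positive cells without overlap, 1 each of Esrrb and Tbx3, and 6 overlapped.

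**Figure D2:**
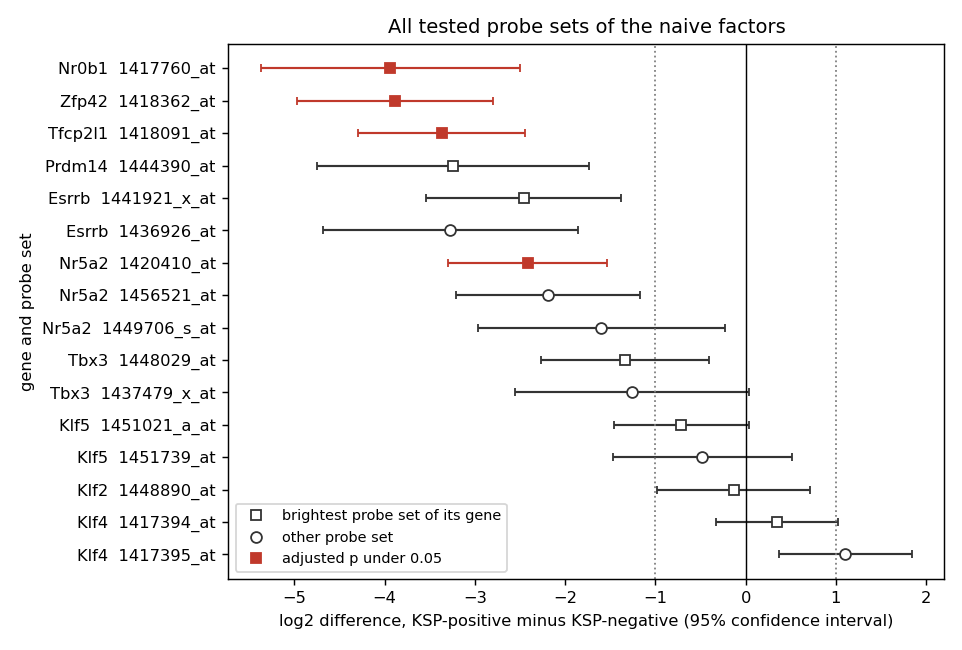
Log2 difference, KSP-positive minus KSP-negative arrays (horizontal axis, 2 arrays a fraction), of the 16 tested probe sets (vertical axis, by gene), with 95% confidence intervals from limma over 27022 probe sets; squares are the brightest probe set of a gene, circles the others, red marks an adjusted p under 0.05 and dotted lines a 2-fold difference. The intervals of the Klf4 and Klf2 probe sets lie to the right of a 2-fold decrease. Those of Nr0b1, Zfp42, Tfcp2l1, Prdm14, Esrrb and, besides 1449706_s_at, Nr5a2 lie wholly to its left.

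The KSP-negative arrays did not differ from each other in the same way for all of the factors. Prdm14, Nr0b1, Zfp42 and Esrrb were higher in KSP-negative replicate 2 than in replicate 1, with gaps of 1.84, 1.73, 1.35 and 1.04 on the log2 scale. Nr5a2 had a gap of 0.00, Klf5 of -0.33 and Tfcp2l1 of -0.40. Genes of core pluripotency, Pou5f1, Nanog and Sox2, which make up the center of the same network, had gaps of 1.22, 1.78 and 1.02, and 10 of 10 genes of that list were higher in replicate 2. Over all 12849 genes the median gap was 0.20, and 8.74% had a gap over 1. Over the 212 genes that fell the median gap was 0.66, with 165 of them higher in replicate 2. The median of the 10 naive factors was also 0.66, but these include Klf2, Klf4, Klf5 and Tbx3, which did not pass the test. The gaps of the factors that fell were 1.84, 1.73, 1.35, 1.04, 0.00 and -0.40. Of 8 tested genes of endoderm and liver, 3 were higher in replicate 2, and the median gap of the list was -0.44. Its genes that fell had gaps of 0.45 (Foxa2), -0.06 (Ttr) and -0.81 (Hnf4a, a liver and kidney factor). Alb, which encodes albumin and did not pass the test, had -1.39. Tfcp2l1 and Nr5a2 thus fell in KSP-positive cells without the gap that Zfp42 and Pou5f1 had between the KSP-negative arrays. These gaps are single differences between a pair of arrays and carry no test. The ratio of 3′ to 5′ actin signal also differed between this pair, at 1.79 in replicate 1 and 3.55 in replicate 2. Its part in the gaps was not tested.

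**Figure D3:**
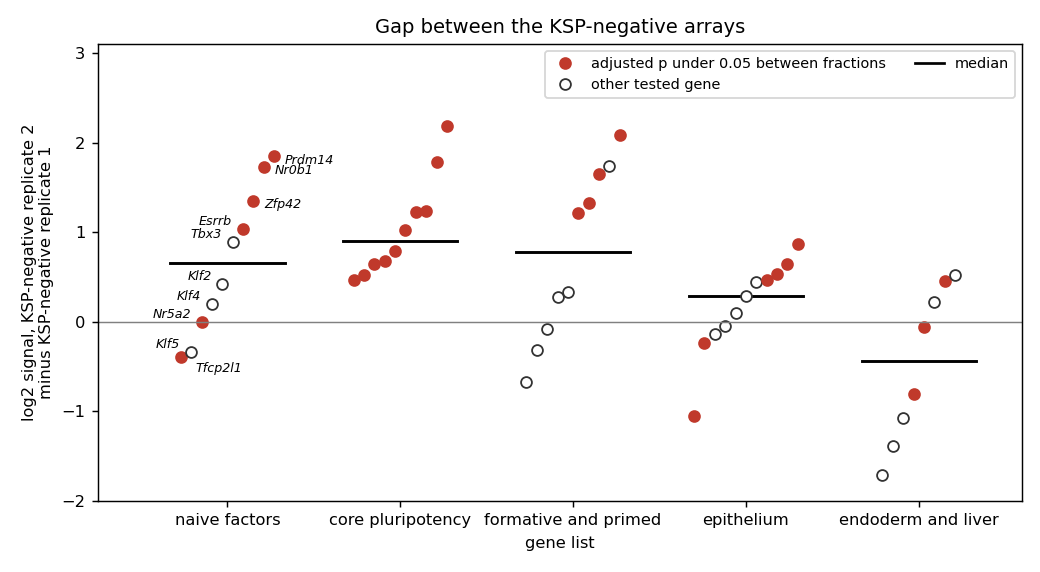
Log2 signal of KSP-negative replicate 2 minus that of KSP-negative replicate 1 (vertical axis) for the tested genes of 5 lists (horizontal axis, genes ordered by gap within a list); red marks genes past an adjusted p of 0.05 between the fractions, white the others, and bars are medians. The naive factors spread from -0.40 for Tfcp2l1 to 1.84 for Prdm14, and the core pluripotency genes all lie above 0.

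For each factor that fell, the 2 genes with the nearest log2 values over the 4 arrays, centered on each gene's mean, were read. Nearest to Zfp42 were Mageb16 and Slc27a2, with root mean square differences of 0.07 and 0.17. Nearest to Nr0b1 were Mymx (0.09) and AF067061 (0.17), and nearest to Prdm14 1700097N02Rik (0.14) and Pla2g1b (0.15). Esrrb had Camsap3 (0.09) and Calcoco2 (0.10) as its nearest genes, Nr5a2 had Grb7 (0.07) and Ctsh (0.15), and Tfcp2l1 had Emb (0.20) and Cldn6 (0.24). No gene was among the nearest of more than 1 factor. With only 2 genes kept of 12849 for each factor, sharing was unlikely in any case, so its absence sets no factors apart.

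Beside the naive factors, the genes of core pluripotency fell in KSP-positive cells without exception, where 1.65% of all genes fell. All 10 genes of that list passed the test (median log2 difference -3.48), with Pou5f1 20.1-fold and Sox2 7.82-fold lower (adjusted p = 0.00202 and 0.00535 from limma). Nanog and Utf1 passed the filter only through the KSP-negative arrays, so they had to be lower in KSP-positive cells to be tested. Nanog had signals of 7.39, which is under the floor, and 20.2 in KSP-positive replicates 1 and 2, against 359 and 1233 in KSP-negative replicates 1 and 2 (adjusted p = 0.00203). The summed signal of the list was 2150 and 2601 in KSP-positive replicates 1 and 2, against 15850 and 27316 in KSP-negative replicates 1 and 2. It was lower in KSP-positive cells, as were the 6 factors that fell, and its part in their differences was not tested.

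Of 11 tested partners and targets of the naive network, 4 fell and none rose, beside 1.65% and 1.84% of all genes. Fgf4, a growth factor of the epiblast, had signals of 3.93, which is under the floor, and 14.4 in KSP-positive replicates 1 and 2, against 269 and 609 in KSP-negative replicates 1 and 2 (adjusted p = 0.00202 from limma). Fgf4 passed the filter only through the KSP-negative arrays. Tcl1, an activator of Akt, fell 5.89-fold (adjusted p = 0.0111), Dppa3, a maternal factor that protects DNA methylation, 4.33-fold (adjusted p = 0.0408) and Jam2, an adhesion molecule, 3.36-fold (adjusted p = 0.0336). The 7 others did not pass, among them Tet2, a dioxygenase of methylcytosine, which had 892 and 497 in KSP-positive cells and 295 and 291 in KSP-negative cells (adjusted p = 0.133). The list went both ways. More than 2-fold lower were 7 genes, beside 7.66% of all genes, and Tet2 was more than 2-fold higher, beside 7.92%. Among the 7, Sp5 passed the filter only through the KSP-negative arrays, as Fgf4 did.

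Of 10 tested genes of the later, formative and primed epiblast, 4 fell, none rose and 6 did not pass (median log2 difference -1.43). Over all genes 1.65% fell. Fgf5, the marker of the primed epiblast, was 6.75-fold lower, Zic5, a zinc finger factor, 6.01-fold, Otx2, which drives the exit from the naive state, 5.41-fold, and Dnmt3b, a de novo DNA methyltransferase, 4.30-fold (adjusted p = 0.0121, 0.0395, 0.0293 and 0.0217 from limma). All 4 were higher in KSP-negative replicate 2 than in replicate 1, as Zfp42 was. Among the others, Tcf7l1, a repressor of the naive network, had a log2 difference of 0.33 and Dnmt3a, another de novo DNA methyltransferase, one of -0.22.

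The LIF pathway, which feeds Klf4 and Tfcp2l1 in ES cells through Stat3, had no gene past the test among 6, with a median log2 difference of 0.76. Socs3, the feedback inhibitor and a direct target of Stat3, had signals of 2841 and 3300 in KSP-positive replicates 1 and 2, against 1030 and 1704 in KSP-negative replicates 1 and 2 (log2 difference 1.21, adjusted p = 0.0992 from limma). Stat3 itself had 1068 and 1223 in KSP-positive cells, against 658 and 462 in KSP-negative cells (log2 difference 1.05, adjusted p = 0.141). In 5 of the 6 genes both KSP-positive arrays were the higher, beside 24.4% of all genes. Klf4 had the same order and Tfcp2l1 the opposite one, and the part of the pathway in their levels was not tested.

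Paralogs of the factors mostly did not pass the test. Over all genes 1.65% fell and 1.84% rose. Of 11 other Krüppel-like factors, none was called, and their median log2 difference was 0.03. Klf15, a metabolic regulator in muscle, kidney and liver, had the lowest value (-1.60, adjusted p = 0.106 from limma). Of 5 relatives of Tfcp2l1, Grhl2, an epithelial grainyhead factor, fell 4.13-fold (adjusted p = 0.0425), and Tfcp2 and Ubp1 had log2 differences of 0.54 and -0.15. Of 8 other T-box genes, Eomes, a factor of the trophoblast and mesendoderm, fell 8.35-fold (adjusted p = 0.00736), while Tbx5, a factor of heart and forelimb, had a log2 difference of 2.35 (adjusted p = 0.0980), with 1 KSP-negative array at the floor. Tbx5 passed the filter only through the KSP-positive arrays, so it had to be higher there to be tested. Esrra and Esrrg, relatives of Esrrb, had log2 differences of -0.69 and 0.68 (adjusted p = 0.361 and 0.444). None of 10 relatives of Prdm14 and Zfp42 was called, and Yy1 had a log2 difference of -0.14.

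**Figure D4:**
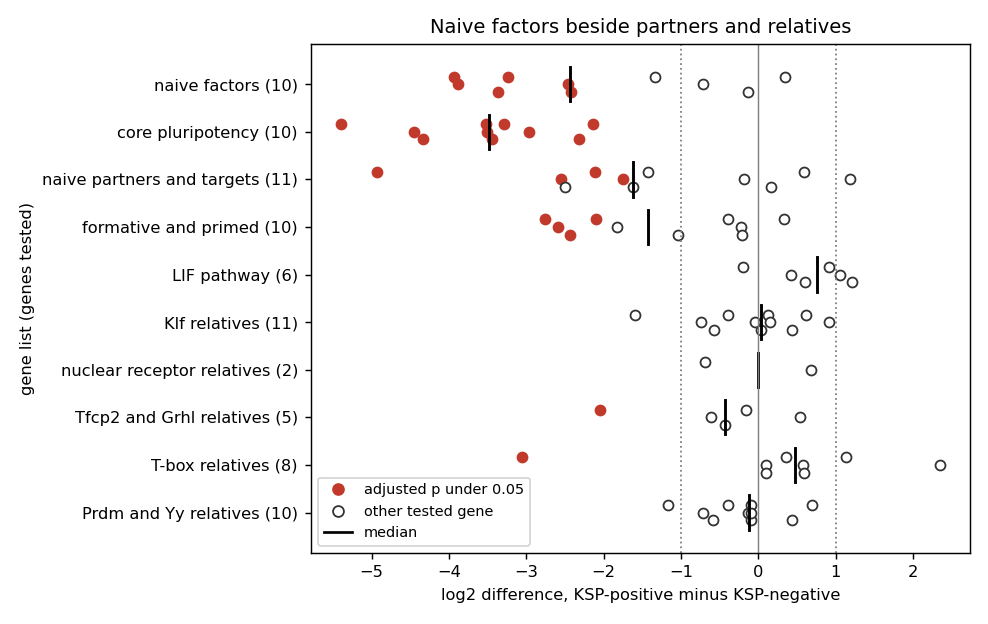
Log2 difference, KSP-positive minus KSP-negative arrays (horizontal axis, 2 arrays a fraction), of the tested genes in 10 lists (vertical axis, gene numbers in brackets); red marks genes past an adjusted p of 0.05 in limma over 12849 genes, white the others, black bars are medians and dotted lines mark a 2-fold difference. The naive factors range from -3.94 to 0.35 around a median of -2.44, while all 10 core pluripotency genes lie left of a 2-fold decrease.

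Tissues that use the same factors were read for their markers. For the collecting duct, where Tfcp2l1 acts, 3 of 10 genes with a probe set passed the filter and none was called (Atp6v0d2, a proton pump subunit, had the lowest adjusted p, 0.0580 from limma, with a log2 difference of 2.33, while the water channel Aqp3 had -1.07, with an adjusted p of 0.298). Foxi1, the factor of intercalated cells, had signals of 3.58 and 19.4 in KSP-positive cells and 42.0 and 15.2 in KSP-negative cells, and Aqp2, the vasopressin-regulated water channel, had 26.4 and 28.2 in KSP-positive cells and 37.5 and 28.6 in KSP-negative cells. These defining markers stood under the filter in both fractions. Atp6v0d2 passed the filter only through the KSP-positive arrays, so it had to be higher there to be tested. For the gonad, where Nr0b1 and Nr5a2 act, 8 of 14 genes passed the filter and none was called. Nr5a1, the steroidogenic factor and closest relative of Nr5a2, lay under the filter with 107 and 32.2 in KSP-positive replicates 1 and 2, against 27.1 and 12.3 (the floor) in KSP-negative replicates 1 and 2. Its arrays were thus ordered opposite to those of Nr5a2. Amh, the hormone of Sertoli cells, was under the floor on all 4 arrays.

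Of 8 tested endoderm and liver genes, where Nr5a2 acts, Hnf4a, Foxa2 and Ttr fell (7.38-fold, 4.04-fold and 3.04-fold, adjusted p = 0.0188, 0.0254 and 0.0450 from limma) and none rose. Of 5 tested trophoblast genes, where Esrrb acts, Eomes and Cdx2, both factors of trophoblast stem cells, fell (Cdx2 3.70-fold, adjusted p = 0.0391), and of 6 tested germ cell genes, where Prdm14 acts, Tfap2c (6.98-fold, adjusted p = 0.00918) and Dppa3 fell. Epithelial genes, among which Klf5 acts, fell in 6 of 11 cases, beside 1.65% of all genes. Both KSP-positive arrays were the lower in all 11, beside 24.6% of all genes. Among the 11, Tjp3 passed the filter only through the KSP-negative arrays, so it had to be lower in KSP-positive cells to be tested. The summed signal of the epithelial list was 8413 and 10589 in KSP-positive replicates 1 and 2, against 23458 and 29457 in KSP-negative replicates 1 and 2. Some members of the endoderm and trophoblast lists had higher values without passing the test, among them Gata6, a factor of primitive endoderm and mesoderm, with a log2 difference of 1.13 (adjusted p = 0.161 from limma) and Plac1, a placental gene, with 1.06 (adjusted p = 0.139). The median log2 difference was -1.77 for the endoderm and liver list, -0.17 for the trophoblast list, -1.27 for the germ cell list and -2.36 for the epithelial list. The part of these lists in the differences of Nr5a2, Esrrb, Prdm14 and Klf5 was not tested.

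For the mesoderm and mesenchyme list, where Tbx3 acts, 2 of 9 tested genes rose, the stromal factor Tcf21 and the receptor Pdgfrb (3.14-fold and 3.50-fold, adjusted p = 0.0331 and 0.0147 from limma), and none fell. Over all genes 1.84% rose and 1.65% fell. Tbx3 had the sign opposite to that of Tcf21 and Pdgfrb. No gene of endothelium passed the test among 11, and their summed signal was 1936 and 4981 in KSP-positive replicates 1 and 2, against 3562 and 2226 in KSP-negative replicates 1 and 2. Klf2, an endothelial factor, shared the higher value in KSP-positive replicate 2 but was higher in KSP-negative replicate 2. The macrophage list, whose cells also express Klf2 and Klf4, was higher in KSP-positive replicate 1 than in replicate 2, while Klf4 and Klf2 had their higher KSP-positive value in replicate 2, by 0.09 and 0.63 on the log2 scale. The part of macrophage RNA in the levels of Klf2 and Klf4 was not tested. Of 5 tested smooth muscle genes none was called.

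Klf2 and Klf4 are also induced within minutes in cells that are dissociated, and all cells here were dissociated with trypsin and collagenase and sorted. Of 14 immediate early and stress genes none passed the test. For 9 of them both KSP-positive arrays lay above both KSP-negative arrays, beside 24.4% of all genes. The summed signal of the 14 genes was 52151 and 56914 in KSP-positive replicates 1 and 2, against 40714 and 38638 in KSP-negative replicates 1 and 2. Among them Hspa1a, a heat shock protein, had a log2 difference of 1.27 (adjusted p = 0.0706 from limma) and Egr1, an early growth response factor, one of 0.45 (adjusted p = 0.505). The sum was higher in both KSP-positive arrays, as was Klf4, and its part in the level of Klf4 was not tested.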

How the data were processed

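RNA of 2 KSP-positive and 2 KSP-negative samples was hybridized by the authors to Mouse Genome arrays of Affymetrix. The deposited values are MAS5 signal intensities on a linear scale, as the submitters' notes name the program, and the paper's GeneSpring standardization is not described and was not repeated. Scale and centering were read from the values, since the medians of the arrays were 55.2 and 62.2 in KSP-positive cells and 67.4 and 56.4 in KSP-negative cells. The 75th percentile was made equal on all arrays (factors 1.24 and 0.874 for the KSP-positive arrays, 0.905 and 1.06 for the KSP-negative arrays). The floor was the 20th percentile of all values and the filter the 40th percentile of the means. The brightest kept probe set stood for its gene. The test was that of limma 3.58.1 under R 4.3.3 (empirical Bayes with an intensity trend, two-sided, p adjusted by Benjamini and Hochberg over 12849 genes or 27022 probe sets), which was tested on simulated data. Of the probe sets, 34945 had 1 gene in the platform annotation, 932 several and 9160 none. Of the gene lists, 11 genes had no probe set of their own here.

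The factors and lists were chosen with earlier results of these data known. Genes named were all 10 factors, up to 4 of each list by p, list genes past the test, defining markers and the 2 nearest genes of each factor past the test. Cdh16, Tet2, Ubp1, Yy1, Egr1, Gata6, Tcf7l1, Dnmt3a, Spi1, Sp5 and Tjp3 fall outside this rule and were chosen after their values were seen. No source says that equal replicate numbers mark 1 experiment, so arrays were not paired. Alternatives were another scaling, floor, filter or summary of probe sets, other empirical Bayes settings, a block for the replicate number, a plain t-test and each array left out. Figures were drawn with matplotlib 3.10.9.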

Additional observations from a re-analysis of the deposited data

How the results depend on the processing

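The direction of Esrrb, Tfcp2l1, Klf4, Klf5, Zfp42, Tbx3, Nr0b1, Nr5a2 and Prdm14 was kept under each alternative that tested them, and of 167 values of the factors under alternatives 146 kept direction and call. Klf2 ranged from -0.45 to 0.18 when each array was left out, and turned to 0.18 without KSP-positive replicate 1 and to 0.08 without KSP-negative replicate 2. Of the 10 factors, 3 to 7 fell when each array was left out in turn (3 without KSP-negative replicate 2, namely Tfcp2l1, Zfp42 and Nr5a2), with 2 to 8 of their probe sets, and none of the factors or probe sets rose in any of these. Over all genes, 104 to 504 fell and 166 to 412 rose. Where 1 array of a fraction was left, it was taken to vary like the other fraction. When dim probe sets were kept, limma called 0 of 18193 genes in either direction and 0 factors or their probe sets, with 8 factors lower at an unadjusted p under 0.05; 1050 genes then had no spread at all. After Benjamini-Hochberg adjustment the methods' t-test called 0 genes, factors and probe sets, and at an unadjusted p under 0.05 it called 570 genes lower and 666 higher, 5 factors lower and 1 probe set of the factors higher. With the values as deposited 352 genes and 8 probe sets of the factors fell, with the floor at the 40th percentile 2 of these probe sets and without the intensity trend 1. Read from the fit of every probe set alone, 59 genes fell, 55 rose and 4 factors fell. With the replicate number as a block, 560 genes fell and 571 rose, and 7 factors (with Tbx3, adjusted p = 0.0194 from limma) and 9 of their probe sets fell. The deviations of same-numbered arrays had a correlation of 0.17 across genes, over too few pairs to decide whether the numbers pair the samples. With a filter at the 60th percentile 4 factors fell, and Nr0b1 and Prdm14 were not tested. Of 660 counts and medians of the gene lists under alternatives, 533 stayed within 1.5 times the count or within the spread between replicates. Dim signals, near the floor for Nr0b1 and Prdm14 in KSP-positive cells, limit the size of their folds.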
